A study of Bos taurus with 8 samples.

Results

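Genes of cell to cell adhesion between myoblasts, 9 in all, were followed in muscle cell cultures of beef and dairy bulls, namely the cadherins CDH15, CDH2, CDH11 and CDH13, the adhesion molecule NCAM1, and the catenins CTNNB1, CTNNA1, CTNND1 and JUP. They were chosen by name, and a probe was taken for a gene where the RefSeq accession it was designed on carries that gene's symbol. Of these 9 genes, 8 had a probe, 1 each, among the 7788 genes that could be named so and the 21475 probes of the array, and no probe was matched to JUP. All 8 probes were among the 17631 that passed the filter on dim probes and were tested.

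Cadherins are calcium-dependent proteins of the cell surface that bind cadherins of the neighbouring cell. Inside the cell, the tail of a classical cadherin binds beta-catenin or plakoglobin (the product of JUP) together with p120 catenin, and alpha-catenin ties this complex to actin, while beta-catenin also serves in the nucleus as the effector of Wnt signaling. In muscle, M-cadherin (CDH15) marks satellite cells and myoblasts, N-cadherin (CDH2) and the catenins are found in many tissues, and NCAM1 is an immunoglobulin-type adhesion molecule of myoblasts and nerve. T-cadherin (CDH13) is unusual in that it is held in the membrane by a lipid anchor and has no tail for catenins.

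The cultures came from the semitendinosus muscle of bulls aged 15 months, 4 bulls each of Limousin (LIM) and Hereford (HER), which are beef breeds, and of the dairy breed Holstein Friesian (HF), and were frozen while proliferating, at 80% confluence, with no treatment. On two-colour arrays, 4 set HER cells in Cy3 against HF cells in Cy5, and the other 4 set LIM cells in Cy5 against HF cells in Cy3. Beef breed and dye cannot be told apart within either comparison, and since the HER arrays shared 1 slide and the LIM arrays another, neither can breed, slide and dye orientation between LIM and HER, whereas a dye bias of a probe that is equal on both slides cancels in the mean of the 2 beef breeds. The cultures were enriched in myoblasts by preplating and were not pure, and the RNA integrity number of every sample was above 9. The methods name 4 HF bulls for 8 HF channels and do not say which bull was on which array, so the LIM and HER ratios share their HF animals and the 8 arrays are not 8 independent pairs.

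The share of probes with a signal well above background was 68.8% to 85.2% in the beef channels and 73.9% to 78.0% in the HF channels. The labelled cell type was borne out in part by its markers: of 8 satellite cell and myoblast genes listed, 5 were tested, and desmin (DES) and the myogenic factor MYF5 were well above background in all 16 channels. Connective tissue genes such as COL1A1 and DCN were also well above background in all 16 channels. So were the endothelial gene KDR, the macrophage gene CD14 and the adipocyte gene FABP4, so that such detection does not tell the cell type. LIM replicate 4 stood furthest from its group, with 212 tested probes (1.2%) lying more than 2 log2 units below the other 3 LIM arrays, against 11 to 152 probes on each of the other 7 arrays. Calls of the adhesion genes that changed without LIM replicate 4 are given also without it, whereas single arrays were not left out for the genes of the lists.

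All values are log2 ratios of beef breed over HF, so that 1 stands for a doubling and a negative value for a lower level in the beef breed. A gene was called where its adjusted p in limma, a linear model fitted over all probes, was at most 0.05 and its fold change was at least 1.3. Limma took the 8 arrays as independent, which arrays with shared HF bulls are not. For the mean of both breeds, its intervals may thus be too narrow and its p-values too small. In cultures of mixed cells, fewer cells of a type and less RNA per cell cannot be told apart. Over the mean of both beef breeds, 4 of the 8 genes were called, CDH15, CDH13 and CTNNA1 higher and CDH11 lower, where 38.1% of all tested probes were called, 17.7% higher and 20.4% lower. The share of called genes was therefore near that of the array as a whole, and the genes differed from each other in size and direction. CDH15 and CDH13 were the 2 genes with a ratio above 0 on all 8 arrays, as were 11.7% of all tested probes.

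**Figure D1:**
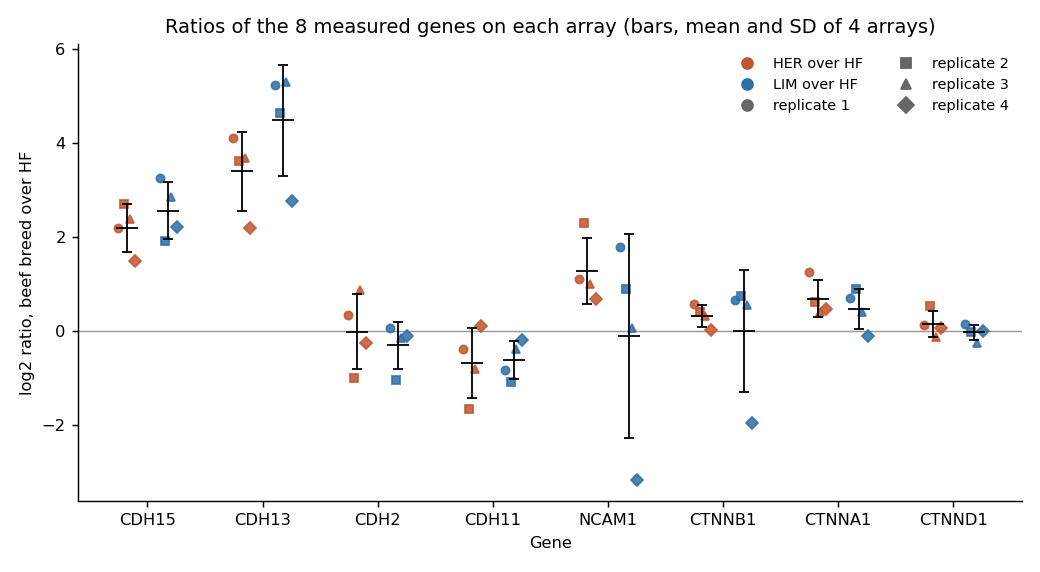
Log2 ratio of beef breed over HF for the 8 measured genes, with a point for each array (orange, HER; blue, LIM; shape, replicate number) and the mean and SD of the 4 arrays of each breed. CDH15 and CDH13 lie above 0 on every array, and LIM replicate 4 lies at -3.18 for NCAM1 and -1.95 for CTNNB1, below the other LIM arrays.

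CDH15, the cadherin of satellite cells and myoblasts, was 5.19-fold higher in beef than in HF cultures. Its log2 ratio was 2.19, 2.70, 2.38 and 1.49 on HER replicates 1 to 4 and 3.26, 1.93, 2.85 and 2.21 on LIM replicates 1 to 4. Every array showed more CDH15 signal in the beef channel, and the ranges of the LIM and HER ratios overlapped. The processed signal of CDH15 ran from 4134 to 14839 in the beef channels and from 830.8 to 3215 in the HF channels, with no overlap between them. The mean log2 ratio was 2.56 ± 0.61 (SD, n = 4) for LIM and 2.19 ± 0.51 (SD, n = 4) for HER. For the mean of both breeds it was 2.38, with a 95% interval of 1.97 to 2.78 and an adjusted p of 0.00013 in limma. This placed CDH15 at the 99.2nd percentile of the tested probes.

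CDH13, the lipid-anchored cadherin, had the highest ratio of the set. It reached 4.11, 3.62, 3.69 and 2.19 on the HER arrays and 5.24, 4.63, 5.31 and 2.78 on the LIM arrays. Replicate 4 was the lowest array of each breed and was still more than 4-fold above HF. In the HF channel, the processed signal of CDH13 was 2079 on HER replicate 4 and 2517 on LIM replicate 4, against 396.7 to 1089 on the other 6 arrays. The mean of both breeds was 3.95 (95% interval 3.23 to 4.66), or 15.4-fold, with an adjusted p of 0.00015 in limma. By breed, it was 22.5-fold higher in LIM and 10.6-fold higher in HER, and the difference of these log2 ratios was 1.09 with a 95% interval of -0.34 to 2.51 (adjusted p = 0.464 in limma).

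CDH2, the cadherin of many mesenchymal and nervous tissues, took both signs. Its log2 ratio was 0.34, -0.999, 0.87 and -0.26 on the HER arrays and 0.07, -1.04, -0.14 and -0.11 on the LIM arrays. The beef channel was the brighter one on 3 of 8 arrays, and replicate 2 was the lowest array in both breeds. Its mean was -0.16 with a 95% interval of -0.64 to 0.32, and it was not called (adjusted p = 0.55 in limma).

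CDH11, a cadherin typical of mesenchymal and bone-forming cells, was lower in the beef cultures. The log2 ratio was -0.39, -1.67, -0.80 and 0.10 on the HER arrays and -0.83, -1.09, -0.38 and -0.19 on the LIM arrays. The beef channel was the dimmer one on 7 of 8 arrays, HER replicate 4 being the exception. The mean was -0.66 (95% interval -1.09 to -0.22), a level 1.58-fold lower than in HF (adjusted p = 0.0213 in limma). It was called in neither breed alone, with an adjusted p of 0.102 for LIM and 0.091 for HER. Some alternatives did give a call in limma. These were LIM without HER replicate 2 (adjusted p = 0.0478), and HER without HER replicate 4 (adjusted p = 0.0457) or with array weights (adjusted p = 0.04985). Without LIM replicate 1 or LIM replicate 2, the adjusted p of the mean was 0.0515 or 0.058.

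NCAM1 had the widest standard error of the set in limma, 0.48 for the mean of both breeds. Its log2 ratio was 1.11, 2.31, 0.99 and 0.69 on the HER arrays and 1.79, 0.90, 0.06 and -3.18 on the LIM arrays. It was above 0 on 7 of 8 arrays, and LIM replicate 4 lay 3.24 below the lowest of the other LIM arrays. On LIM replicate 4, the processed signal of NCAM1 was 163.1 in the LIM channel against 1474 in the HF channel, both well above background. The mean was 1.27 ± 0.71 (SD, n = 4) for HER and -0.11 ± 2.17 (SD, n = 4) for LIM. Over both breeds it was 0.58 with a 95% interval of -0.52 to 1.69, and NCAM1 was not called (adjusted p = 0.345 in limma). Without LIM replicate 4, the mean of both breeds was 1.10 and was called (adjusted p = 0.00887 in limma), whereas without LIM replicate 1 it was 0.27 and was not. Array weights also gave a call (0.90, adjusted p = 0.0444). The LIM mean alone was not called in either case, at 0.92 without LIM replicate 4 (adjusted p = 0.0907) and -0.74 without LIM replicate 1. The HER mean was called as well when the spread was estimated without that array (adjusted p = 0.0243 in limma).

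**Figure D2:**
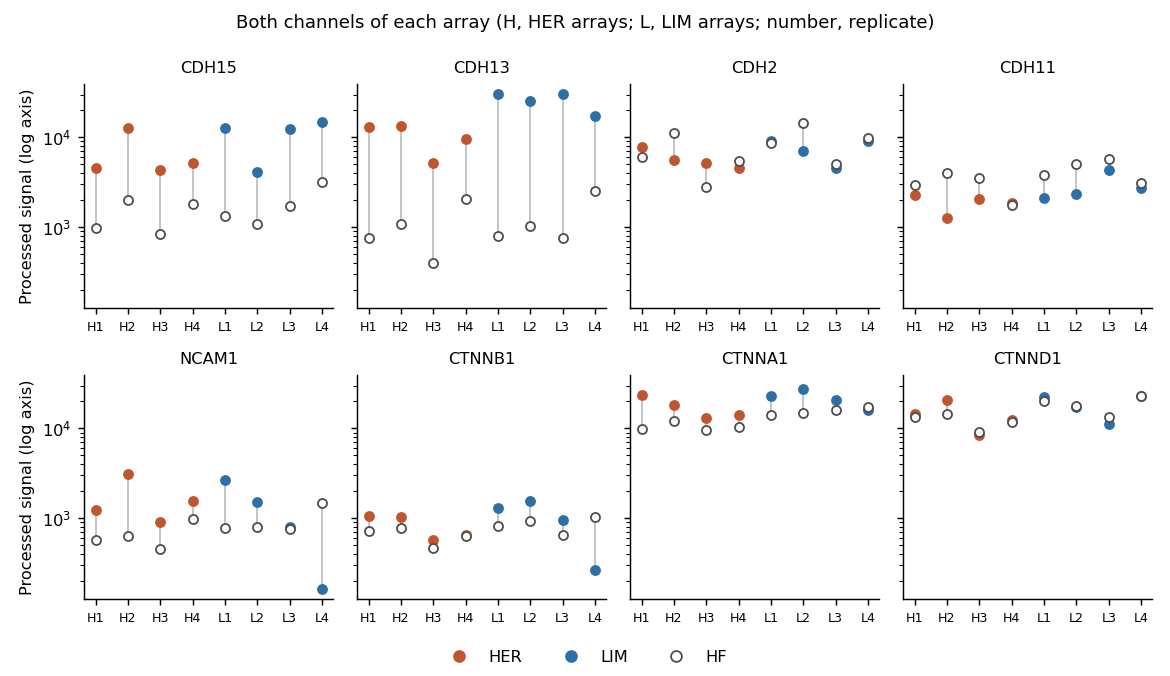
Processed signal of each gene in the beef channel (filled; orange, HER; blue, LIM) and in the HF channel (open) of each array, on a log axis, with a line joining the channels of an array. The channels of CDH15 and CDH13 are apart on all 8 arrays, those of CTNND1 nearly coincide, and on LIM replicate 4 (L4) the LIM signals of NCAM1 and CTNNB1 fall to 163.1 and 263.2.

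Among the catenins, CTNNA1 (alpha-catenin, the link to actin) was higher in the beef cultures. The log2 ratio was 1.26, 0.62, 0.41 and 0.47 on the HER arrays and 0.70, 0.89, 0.40 and -0.11 on the LIM arrays. LIM replicate 4 was the one array below 0. The mean of both breeds was 0.58 (95% interval 0.27 to 0.89), or 1.49-fold, with an adjusted p of 0.00907 in limma. By breed it was called in HER (0.69, adjusted p = 0.0343) and not in LIM (0.47, adjusted p = 0.0903), and the difference between the breeds, -0.22 with a 95% interval of -0.84 to 0.41, was not called (adjusted p = 0.772). The HER call was lost when any one of the HER arrays or LIM replicate 3 was left out, with an adjusted p of 0.054 to 0.136, and without LIM replicate 4 CTNNA1 was called in LIM too (0.66, adjusted p = 0.0258 in limma).

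CTNNB1 (beta-catenin, which binds the cadherin tail and acts in Wnt signaling) was slightly above HF on 7 of 8 arrays. The values were 0.57, 0.40, 0.31 and 0.01 on the HER arrays and 0.65, 0.75, 0.56 and -1.95 on the LIM arrays. LIM replicate 4 again lay apart, 2.51 below the lowest of the other LIM arrays, with a signal of 263.2 in the LIM channel against 1019 in the HF channel. The mean of both breeds was 0.16 (95% interval -0.49 to 0.82) and was not called (adjusted p = 0.662 in limma). Without LIM replicate 4 it was 0.49 and was called (adjusted p = 0.00269 in limma), as was the LIM mean of 0.65 (adjusted p = 0.00721). The call of CTNNB1 in LIM thus turned on 1 array.

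CTNND1 (p120 catenin, which holds cadherins at the membrane) had the smallest standard error of the set, 0.09 for the mean of both breeds. Its log2 ratio was 0.12, 0.53, -0.12 and 0.06 on the HER arrays and 0.15, -0.03, -0.25 and -0.01 on the LIM arrays. Beef and HF were each the brighter channel on 4 of 8 arrays. The mean of 0.06 had a 95% interval of -0.15 to 0.26 and was not called (adjusted p = 0.626 in limma). This interval of the mean of both breeds stayed within the fold change of 1.3 asked of a call. That of HER alone, -0.15 to 0.44, reached past it.

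**Figure D3:**
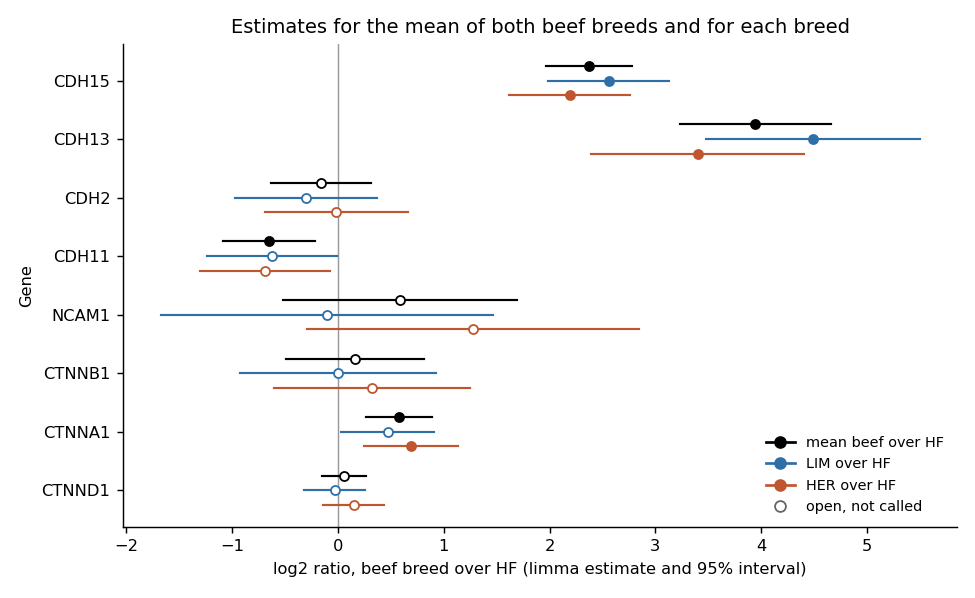
Limma estimates of the log2 ratio over HF with 95% intervals for the mean of both beef breeds (black), LIM (blue) and HER (orange), with filled points for called genes and open points for the others. The intervals of CDH15 and CDH13 lie far from 0 in all 3 estimates, while those of NCAM1 reach from -1.67 to 2.84.

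By breed, 2 of the 8 genes were called in LIM, CDH15 and CDH13, both higher, where 34.3% of all tested probes were called. In HER, 3 of 8 were called, CDH15, CDH13 and CTNNA1, all higher, where 24.4% of all probes were called. For CDH15 the adjusted p in limma was 0.000664 in LIM and 0.0027 in HER, and for CDH13 it was 0.000664 and 0.00353. At an unadjusted p, 4 genes passed in each breed, these 3 and CDH11, against 41.6% of all probes in LIM and 34.8% in HER. When the raw intensities were corrected by normexp and normalized by loess in place of the scanner's own ratio, none of the HER calls was kept (CDH15 1.47, adjusted p = 0.165; CDH13 2.19, adjusted p = 0.176; CTNNA1 0.66, adjusted p = 0.214 in limma), and limma called 0 probes of the whole array in HER after adjustment and 1742 before it. With outlying local backgrounds first replaced by the median of the array, all 3 HER calls were made again. The methods' t-test after adjustment called none of the 8 genes in either breed (2 in LIM and 4 in HER before adjustment), with an adjusted p of 0.051 for CDH15 in LIM.

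Between the beef breeds, LIM minus HER, 0 of the 8 genes were called by limma, and 0 also at an unadjusted p, where 0.233% of all probes were called after adjustment and 14.1% before it. A dye bias of a probe does not cancel in this difference but adds to it from both sides. NCAM1 was at -1.38 (95% interval -3.60 to 0.84), and at -0.36 without LIM replicate 4. CDH13 was at 1.09, and at 1.66 without that array. For CDH15 the difference was 0.37 with an interval of -0.44 to 1.18. The intervals of NCAM1 and CDH15 reach past 1.3-fold in both directions and that of CDH13 past it toward LIM, so that the breeds are not shown to be alike.

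The ratio of CDH15, the muscle member of the set, was then set against that of the widely expressed members measured here, CDH2, CTNNB1, CTNNA1 and CTNND1. On every array CDH15 stood above the mean of these 4 genes, by 1.42 to 2.87 log2 units. The difference was 2.53 ± 0.50 (SD, n = 4) on the LIM arrays and 1.91 ± 0.50 (SD, n = 4) on the HER arrays. Over all 8 arrays it was 2.22 ± 0.57 (SD, n = 8). Gene by gene, the CDH15 ratio exceeded that of CDH2 by 2.54, of CDH11 by 3.03, of NCAM1 by 1.79, of CTNNB1 by 2.21, of CTNNA1 by 1.80 and of CTNND1 by 2.32 on average. It was higher than each of these 6 on 8 of 8 arrays and lower than CDH13 on 8 of 8, by 0.57 to 2.71. An exact two-sided sign-flip test over the 8 arrays gave p = 0.00781 for each of the 7 pairs, the smallest value it allows, and 0.00781 after adjustment over the 7 pairs. This test takes the 8 arrays as independent, which arrays with shared HF bulls are not, so its p is too small. Within a breed, 4 arrays allow no p below 0.125, and each pair reached that value.

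**Figure D4:**
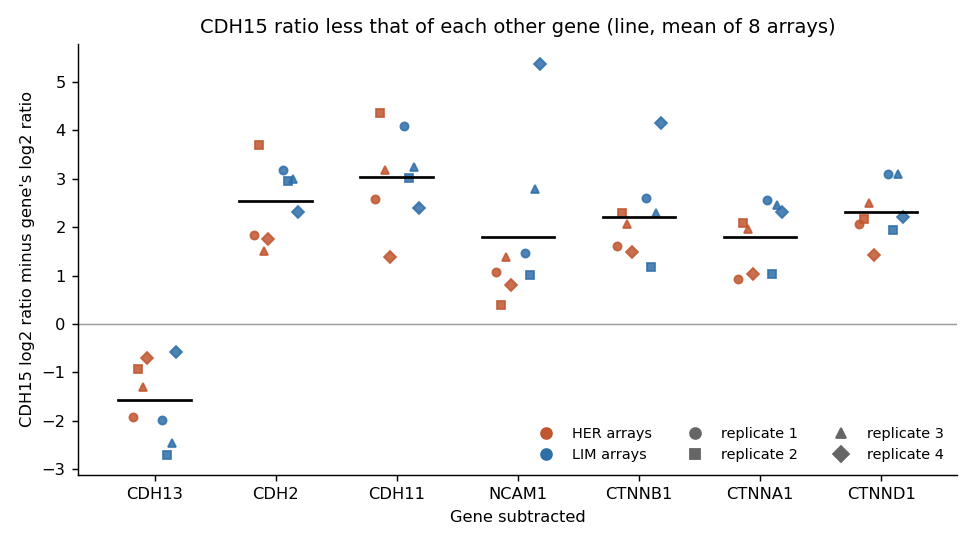
Log2 ratio of CDH15 less that of each other gene on the same array, with a point for each array (orange, HER; blue, LIM; shape, replicate number) and a line at the mean of 8 arrays. All points lie above 0 except those of CDH13, which lie between -2.71 and -0.57.

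Ordered by the mean ratio of both breeds, the genes ran CDH13, CDH15, NCAM1, CTNNA1, CTNNB1, CTNND1, CDH2 and CDH11. CDH13 was above CDH15, and CDH15 above NCAM1, on 8 of 8 arrays. In the other 5 neighbouring pairs, the gene with the higher mean was the higher one on 5 to 7 of 8 arrays, so that from NCAM1 down to CDH11 no gene was above the next on every array. The pairs were formed from these same means, so no p is given for their order. The pairs of CDH15 with CDH13 and with NCAM1 were among those tested above.

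The 5 named genes whose 8 ratios lay closest to those of CDH15 were QSOX1, TPM1, CYRIA, SPARC and IGF2R. Their root mean square difference from CDH15 over the 8 arrays was 0.38, 0.40, 0.41, 0.45 and 0.47, where the median over 7204 named probes was 2.49. The 5 genes were picked by this same measure, so their place below the median was fixed in advance. The measure takes in the level of the ratios as well as their course over the arrays. QSOX1 encodes a sulfhydryl oxidase, TPM1 a tropomyosin, SPARC a secreted matrix protein and IGF2R the receptor that takes up insulin-like growth factor II.

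Related genes were read from 5 lists, of which 50 genes had a named probe and 41 were tested. Over the mean of both breeds, 9 of the 41 were higher, 7 were lower and 25 were not called. The share of 16 in 41 was close to the 38.1% of all probes, and the lists differed from each other.

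Of 25 other cadherins listed, 7 were tested, and 1 was higher and 4 were lower, where 17.7% of all tested probes were called higher and 20.4% lower. Their median log2 ratio was -0.49, where that of all tested probes was -0.04. The atypical cadherin FAT1 was 1.72-fold higher (log2 0.78, adjusted p = 0.0156 in limma). Protocadherin PCDH1 was 2.60-fold lower, CDH23 was 1.95-fold lower and CDH20 was 1.61-fold lower, each on 8 of 8 arrays. The probe of CDH20 was well above background in 4 of 8 beef channels and 7 of 8 HF channels. The fourth lower cadherin, CDH6 (-0.49), named after its value was seen, was well above background in only 2 of 8 channels on each side. The muscle cadherin CDH15 and CDH13 thus moved the opposite way from 4 of these 7 relatives.

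Of 25 partners of cadherins at the junction, 11 were tested, 1 was higher, 1 was lower and 9 were not called. Over all tested probes, 38.1% were called. ARVCF, a catenin of the p120 family, was 2.91-fold higher (log2 1.54, adjusted p = 0.00253 in limma), on 7 of 8 arrays. AJUBA, a LIM-domain protein that binds alpha-catenin, was 2.27-fold lower (log2 -1.18, adjusted p = 0.000443), on 8 of 8 arrays. Vinculin (VCL) was at -0.03 and alpha-actinin ACTN1 at 0.20, neither of them called.

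Of the genes of beta-catenin turnover and its nuclear partners, 14 were listed and 8 tested. Of these, 0 were higher, 1 lower and 7 not called, with a median of -0.0023, where 38.1% of all tested probes were called. The one called gene was TCF7, a transcription factor that binds beta-catenin, at -1.17 (2.24-fold lower, adjusted p = 0.000154 in limma), and its other probe was also lower (-0.68, adjusted p = 0.00116). APC, the scaffold that marks beta-catenin for destruction, had -0.39 and was not called (adjusted p = 0.0582).

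Genes of myoblast recognition and fusion were higher in 6 of 10 tested genes out of 30 listed, with 0 lower and a median of 0.71, where 17.7% of all probes were called higher and the median of all was -0.04. Only 12 of the 30 had a named probe, and MYMK, MYMX, CDON, BOC and JAM3 were not among them, so the counts leave these genes out. Dysferlin (DYSF), which repairs muscle membranes, was 3.07-fold higher (log2 1.62, adjusted p = 0.00169 in limma). Caveolin 3 (CAV3), the muscle caveolin, was 2.59-fold higher (log2 1.37, adjusted p = 0.00202). The tetraspanin CD9 was 2.05-fold higher (log2 1.04, adjusted p = 0.00178), and all 3 were higher on 8 of 8 arrays. The other 3 called genes were CD81, ELMO1 and MYOF, named after their values were seen, at 0.88, 0.76 and 0.66. The probes of MYOF disagreed, since its second one had -0.26 and was not called (adjusted p = 0.113).

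Of 13 relatives and partners of NCAM1, 5 were tested, 1 was higher and 1 was lower, a share near the 38.1% called among all tested probes. MCAM, an adhesion molecule of vessel walls and muscle progenitors, was 2.94-fold higher (log2 1.56, adjusted p = 0.0418 in limma) on 7 of 8 arrays, with an SD of 2.11 over the HER arrays. FYN, a kinase that acts below NCAM1, was 1.5-fold lower (log2 -0.58, adjusted p = 0.000755) on 8 of 8 arrays. The polysialic acid transferase ST8SIA2 was at 0.03 and was not called.

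**Figure D5:**
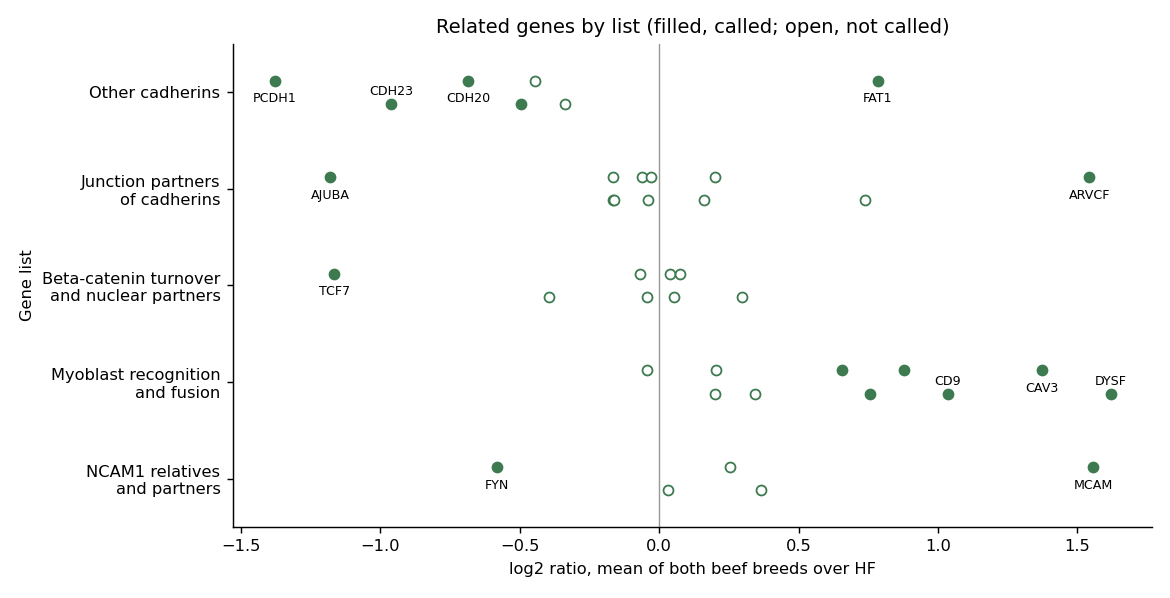
Log2 ratio of the mean of both beef breeds over HF for the 41 tested genes of the 5 lists, 1 point per gene, filled where called and open where not, with names on those chosen by rule. The called genes of myoblast recognition and fusion all lie above 0, and 4 of the 5 called cadherins lie below it.

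Markers of the cells that the cultures could hold were read on the same arrays, where 17.7% of all tested probes were called higher and 20.4% lower. Of the 5 tested satellite cell and myoblast genes, 4 were higher in beef than in HF, among them MYF5 (1.90) and DES (2.69), and the mean ratio of the 5 ran from 0.74 to 2.22 over the arrays. Their summed processed signal was 27693 to 80194 in HER against 10225 to 36808 in HF on the same arrays, and 42025 to 102650 in LIM against 15141 to 54992 in HF. All 6 tested genes of differentiating muscle were higher, with a median of 3.48 and summed signals of 13358 to 97895 in the beef channels against 1572 to 9135 in HF. The part of the myoblast and differentiation genes in the CDH15 ratio was not tested.

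For other cell types, the counts stand beside the same shares of all tested probes, 17.7% higher and 20.4% lower. Of 7 tested connective tissue genes, 5 were higher and 2 lower, PDGFRA (-1.42) and TCF21 (-1.13). The mean ratio of the 7 ran from -0.02 to 1.61 over the arrays. The probes of DCN, counted as higher (1.63), disagreed, since its second one had -0.35 (adjusted p = 0.0219 in limma) and missed a call only through the fold threshold. Their summed signal was 180946 to 553721 in the beef channels and 40493 to 149714 in HF, and their part in the lower CDH11 was not tested. Of 4 smooth muscle and pericyte genes, 2 were higher, the mean ratio ran from -0.42 to 1.90, and the summed signal was 215478 to 467948 in the beef channels and 101295 to 273317 in HF, with their part in the CDH13 ratio not tested. Of 4 endothelial genes, 0 were called by limma after adjustment and 1 before it. The mean ratio of the 4 ran from -1.97 on HER replicate 3 to 2.39 on LIM replicate 2, and its part in the CDH13 ratio was not tested. The summed endothelial signal was 200.6 to 3712 in HER and 483 to 5577 in LIM, against 333.6 to 1477 in HF.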

How the data were processed

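Gene expression was measured on 8 two-colour arrays with 44407 spots each. The authors deposited the scanner output of Feature Extraction 10.7.3.1, which holds the intensity of each spot and a log10 ratio of red (Cy5) over green (Cy3) after background subtraction and dye normalization by the software. The deposited series table holds the same log10 ratio (largest difference 0), and its normalization beyond that is not given in the sources used here. The ratio was turned to log2 beef breed over HF, with the sign turned on arrays with the beef breed in Cy3. Control spots were removed along with spots the software marked as outlying, and repeated spots of a probe were averaged. A probe was tested where 4 or more of the 16 channels lay well above background (17631 of 21475).

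Both comparisons were fitted in one model with limma 3.58.1 in R 4.3.3 (lmFit, eBayes), and p-values were adjusted by Benjamini and Hochberg over all tested probes. Groups, dyes and replicate numbers came from the labels. Replicates are called biological there, and with 4 arrays per comparison their number limits the precision. Probes were named through RefSeq accessions (7793 of 20693 matched, table of assembly ARS-UCD2.0), and no coordinates are given because the array rests on another assembly. The limma fit and the call, but not the earlier steps, were run on simulated ratios. Their noise was independent between arrays, with no shared HF animals and no dye or slide effect.

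The genes and lists were chosen with earlier results of these data known. Named besides the set were, from each list, up to 3 genes with the highest and up to 3 with the lowest mean ratio among called genes, and the 5 genes closest to CDH15. Other genes of the lists are named as examples, called or not, and were chosen after their values were seen. Of several probes for a gene, the brightest stood for it. Marker lists covered 10 cell types, states or reference genes. Lists not described in the report were read for the mean of both breeds, where 17.7% of all tested probes were called higher and 20.4% lower. Of tested leukocyte genes, 1 of 2 was higher, and of adipocyte genes, 2 of 4 were higher and 1 lower. Of 3 Schwann cell genes, 1 was higher and 2 lower, one of them NGFR at -1.64, whose other probe was called higher at 1.16. Of 3 genes of dividing cells, 1 was lower. Of 4 reference genes, 0 were called by limma, before or after adjustment. Their adjusted p was 0.0354 to 0.0472, and they missed the call through the fold threshold. In LIM alone, ACTB was called (0.41, adjusted p = 0.0351 in limma), as was a second probe of GAPDH (0.46, adjusted p = 0.0237). Alternatives covered background correction, normalization, centring, the filter on dim probes, outlying spots, the series table, the methods' t-test, array weights, a block for the replicate number, the threshold and leaving out each array. Samples with the same replicate number did not all deviate together (correlations of -0.24, 0.13, 0.30 and 0.54 over 17629 probes), so the numbers were not taken to pair the arrays.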

Additional observations from a re-analysis of the deposited data

Results flagged for a closer look

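CTNNB1 on LIM replicate 4 lay far from the other arrays of its group, at a log2 ratio to HF of -1.95 against 0.56 to 0.75 on the other 3 LIM arrays. The gap was 0.93 of the whole range of the group. Of 16 groups of 4 arrays examined (8 genes in 2 breeds), 1 held such a value, where chance gives about 1 in 20, or 0.8 of 16.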

How the results depend on the processing

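CDH15, CDH13 and CTNNA1 kept their direction and their call for the mean of both breeds under all 23 alternatives, at 1.95 to 2.49, 3.20 to 4.23 and 0.48 to 0.67. CDH11 lost its call there under 2 of 23. In all, 682 of 736 values of single genes kept their direction and side of the threshold, 15 lost a call, 16 gained one and 23 changed sign. Part of this agreement was fixed in advance. Leaving out a HER array does not change a LIM mean, nor the reverse, and some alternatives change only the test or the threshold. The series table also repeats the ratios with outlying spots kept. Each measured gene had 1 probe named through its RefSeq accession, so another choice of probe could not be tried. Whether probes left without a name belong to these genes was not examined. Precision is limited by 4 arrays per comparison and by HF animals shared between comparisons.

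With normexp and loess, the number of probes called was 0 in HER, 3289 for the mean of both breeds and 0 for LIM minus HER (1742 in HER and 1522 for LIM minus HER before adjustment), the number of the 8 genes called in HER was 0, and CDH15 minus the widely expressed genes in HER was 1.24. With all 7 other genes in that mean it was 2.00 in LIM. The methods' t-test, adjusted, called 1002 probes and 0 of the 8 genes in LIM, and 2 probes and 0 genes in HER. Limma at an unadjusted p called 4 genes in LIM. For LIM minus HER (41 probes called), the count was 1 with outlying backgrounds replaced, 1 without background subtraction, 12 with scaling between arrays, 76 without the filter on dim probes, 0 with all 16 channels required (1839 before adjustment), 224 with array weights, 2135 by the methods' unadjusted t-test and 2482 by limma unadjusted. The cause of these shifts was not tested.

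Leaving out each array in turn gave 3796 (without LIM replicate 3) to 7011 (without LIM replicate 4) probes and 2 to 4 genes in LIM, 1527 (without HER replicate 2) to 5439 probes and 2 to 4 genes in HER, 5856 to 7459 probes and 3 to 6 genes for the mean of both breeds, and 1 to 14 probes for LIM minus HER. The 4 genes in LIM and the 6 for the mean of both breeds came without LIM replicate 4. Values whose sign turned ran from -0.74 to 0.92 for NCAM1, -0.25 to 0.65 for CTNNB1 and -0.094 to 0.039 for CTNND1 in LIM, from -0.31 to 0.31 for CDH2 in HER, from -0.31 to 0.0041 for CDH2 and -0.0064 to 0.10 for CTNND1 in the mean of both breeds, and from -0.62 to 0.0022 for CDH2, -0.26 to 0.33 for CDH11 and -0.57 to 0.33 for CTNNB1 in LIM minus HER.

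Other changes of sign were NCAM1 in LIM (0.14 with normexp, 0.44 with array weights), CDH2 in HER (0.060 with outlying backgrounds replaced, 0.060 without background subtraction, 0.046 with median centring), and, for LIM minus HER, CDH15 (-0.12 with scaling), CDH11 (-0.20 with normexp) and CTNNB1 (0.0041 with normexp, 0.15 with array weights). None of these values was called.

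With the replicate block, 0 probes were called by limma for LIM minus HER (2706 before adjustment), and CDH11 was called in LIM (adjusted p = 0.0345) and in HER (adjusted p = 0.0366 in limma). Not every array correlated best with its own number.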
